A study of Mus musculus with 6 samples.

Results

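Glycolysis and the pentose phosphate pathway were followed through 39 genes, chosen as a list of symbols that covers glucose and lactate transport, the enzymes and regulators of glycolysis, and the pentose phosphate enzymes. The table of the series holds 19617 rows, and 38 of the 39 symbols name a row in it. The remaining one, Tigar, was found under its former symbol 9630033F20Rik, as RefSeq pairs them. RNA was sequenced from mouse Lewis lung carcinoma cells, a transplantable lung tumour line, that carried a lentiviral short hairpin RNA (shRNA). In 3 libraries the hairpin was directed at Urod, which encodes the heme synthesis enzyme uroporphyrinogen decarboxylase, and the labels give the genotype as Urod knockdown. In the other 3 libraries the hairpin was scrambled and the genotype is given as Urod wildtype. Both groups received doxycycline, the inducer of the hairpin, at 2 ug/mL over 4 days. Each group is 1 population of 1 cell line, so the effect of losing Urod and any further difference between those populations cannot be told apart.

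Glycolysis splits glucose into pyruvate in the cytosol and yields ATP without oxygen. Tumour cells often pass much of that pyruvate on to lactate, which lactate dehydrogenase makes and monocarboxylate transporters export. The pentose phosphate pathway branches off at glucose 6-phosphate: its oxidative arm makes NADPH, and its non-oxidative arm links ribose 5-phosphate, the sugar of nucleotides, back to glycolysis. Several steps are carried out by isozymes from separate genes, and which isozyme a cell uses can change with tissue and oxygen supply.

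Values are TPM, a transcript level scaled for transcript length and library total, so levels of different genes can be compared and the absolute read depth is unknown. Relative depth, read from the smallest values of scarce genes and with Urod shRNA replicate 1 as the unit, was 95.6% and 85.7% in the remaining Urod shRNA libraries and 72.9% to 81.9% in the scrambled ones. Urod itself stood at 5.71, 5.21 and 5.35 TPM in Urod shRNA cells, against 95.2, 89.9 and 92.1 TPM in scrambled cells, a log2 change of -3.86 (SE 0.05; limma, adjusted p = 8.22e-09). Of the markers of other cell types, 4 of 6 leukocyte, 2 of 3 endothelial, 3 of 4 fibroblast and 3 of 3 erythroid genes in the table had a mean over the 6 libraries under 1 TPM. Among these, the endothelial Cdh5 stood at 1.44 ± 0.160 TPM in Urod shRNA and 0.297 ± 0.0453 TPM in scrambled libraries. The fibroblast Col1a1 stood at 0.144 ± 0.0299 and 1.25 ± 0.340 TPM (SD, n = 3 each). The leukocyte sum was 41.6 to 44.0 TPM in Urod shRNA and 102 to 104 TPM in scrambled libraries, nearly all of it Lyz2 and Cd68, while Ptprc stayed under 0.1 TPM in all 6. The endothelial sum was 8.61 to 9.45 TPM in Urod shRNA and 4.87 to 5.19 TPM in scrambled libraries, and the fibroblast sum, mostly Pdgfra, 33.9 to 36.1 and 57.0 to 59.9 TPM. Of 4 epithelial markers Krt8 was abundant, at 445 to 468 TPM in Urod shRNA and 301 to 328 TPM in scrambled libraries, whereas Krt18 and Cdh1 were under 1 TPM in every library. Epcam was low and went the other way, at 0.943 ± 0.116 TPM in Urod shRNA and 1.96 ± 0.195 TPM in scrambled libraries (SD, n = 3 each; log2 change -0.61, limma, adjusted p = 0.00039). The mesenchymal marker Vim stood at 3799 to 3901 TPM in Urod shRNA and 7778 to 7878 TPM in scrambled libraries. In bulk RNA, fewer cells of a type and less RNA per cell cannot be told apart, and the part of these markers in the results was not tested. Whether replicates were grown as separate cultures is not given in the labels, and the p-values rest on a spread between libraries that may be technical only.

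Across the listed members, transcripts of Slc2a1, Slc2a3, Ldha and both listed lactate transporters were higher in Urod shRNA cells, and the early control steps were split between isozymes. From aldolase to pyruvate kinase 6 of 9 tested members were modestly higher, 5 of them genes whose reads can be shared with other genes. Of the 39 members, 35 had a mean of at least 1 TPM and were tested, and these 35 stood above 1 TPM in every library. Called were 29 of 35, 20 higher and 9 lower in Urod shRNA cells (limma on log2(TPM + 1), Benjamini-Hochberg adjusted p under 0.05 over all genes tested). That is 82.9%, while 74.7% of all 11980 genes tested were called, so being called does not set the members apart. By direction, 57.1% of the members were higher and 25.7% lower, against 38.5% and 36.2% of all genes tested. The median log2 change was 0.23 over the members and 0.02 over all genes tested. Without the members that share over 20% of their sequence words with other genes, as set out at Gapdh, the members' median was 0.16. The changes ran from -1.09 for H6pd to 0.75 for Slc2a1, and 9 members (25.7%) were called with a log2 change of at least 0.5 in size, against 31.5% of all genes tested. The groups' values did not overlap for 29 members (82.9%), against 77.3% of all genes tested. With all members summed, 1.42% to 1.49% of TPM fell on them in Urod shRNA libraries and 1.16% to 1.22% in scrambled libraries.

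**Figure D1:**
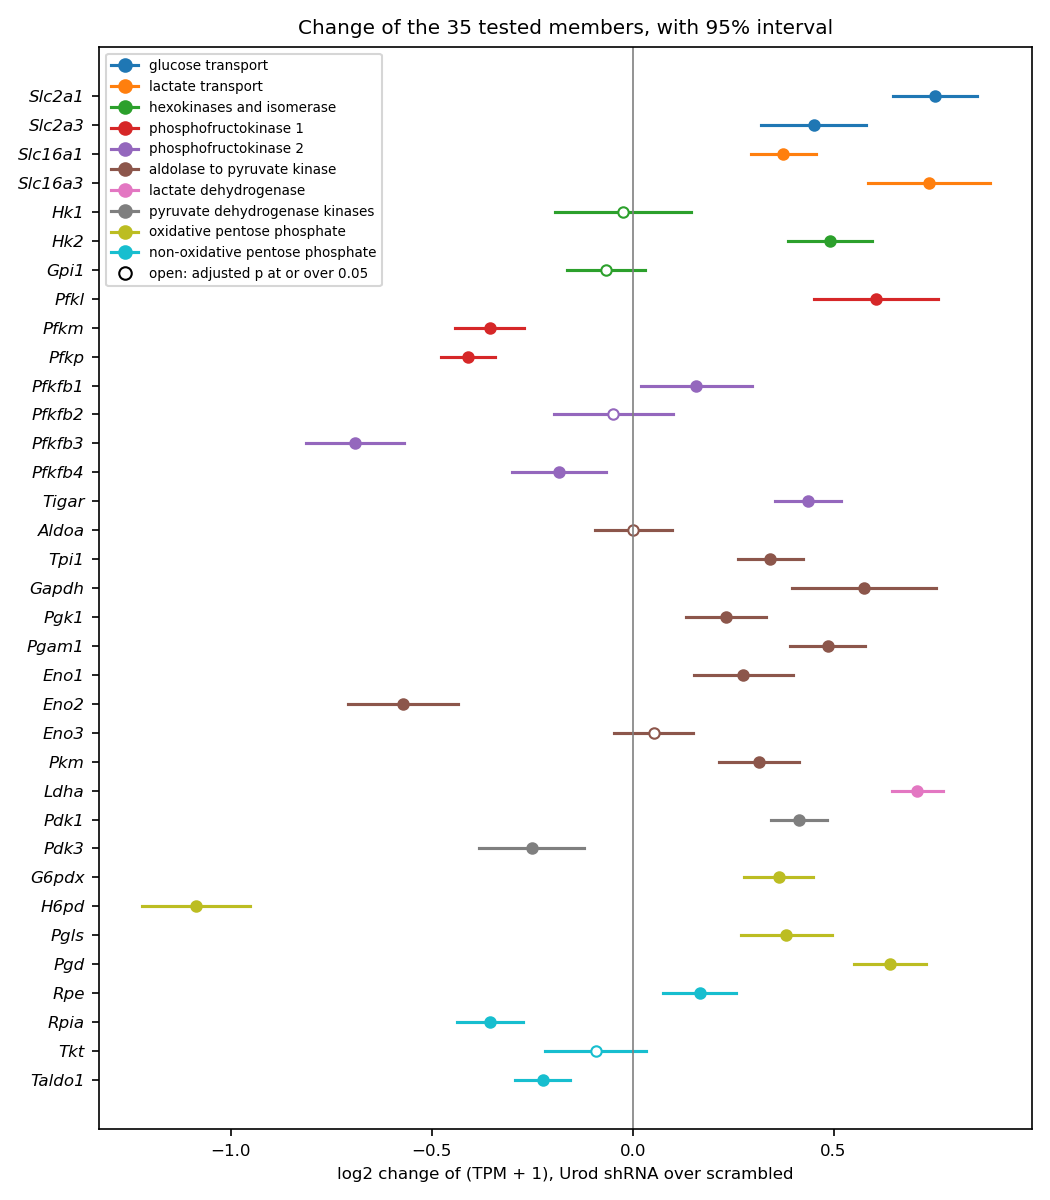
Log2 change of TPM + 1, Urod shRNA over scrambled, for the 35 tested members in pathway order from top to bottom, coloured by role, with 95% intervals (limma, n = 3 per group); open points did not pass the test. The transporters and Ldha lie to the right, H6pd lies farthest to the left at -1.09, and the phosphofructokinase genes lie on both sides.

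Both listed glucose transporters had higher transcript levels, while of 3 further transporters tested Slc2a4 (log2 change -1.25) and Slc2a8 (-0.95) were lower and Slc2a6 (0.31) was higher. Slc2a1, which encodes the main glucose transporter of proliferating cells (GLUT1), had 267, 286 and 279.7 TPM in Urod shRNA cells, against 155, 166 and 172 TPM in scrambled cells. Every Urod shRNA library was above every scrambled one, and the gene rose 1.69-fold (log2 change 0.75, SE 0.04; limma, adjusted p = 3.81e-06). Slc2a3, the high-affinity transporter GLUT3 best known from neurons, was far less abundant, with 15.4, 15.5 and 14.8 TPM in Urod shRNA cells and 10.2, 10.97 and 11.5 TPM in scrambled cells. It rose 1.40-fold (log2 change 0.45, SE 0.06; limma, adjusted p = 0.000183), again with no overlap. Slc2a1 made up 94.8% of the summed TPM of the pair in Urod shRNA cells and 93.8% in scrambled cells.

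Transcripts of Ldha and of both listed lactate transporters were higher as well. Ldha, the lactate dehydrogenase subunit that favours the step from pyruvate to lactate, had 2816, 2829 and 2821 TPM in Urod shRNA cells, against 1743, 1726 and 1710.1 TPM in scrambled cells. The libraries of each group lay close together and far from the other group, and Ldha rose 1.63-fold (log2 change 0.71, SE 0.03; limma, adjusted p = 5.01e-07). Ldhb, the subunit that favours the reverse step, was under 1 TPM in every library, at 0.537, 0.562 and 0.431 TPM in Urod shRNA cells and 0.920, 0.739 and 0.738 TPM in scrambled cells, and was not tested. Slc16a3 encodes MCT4, a transporter suited to lactate export from glycolytic cells. It had 383, 408 and 411 TPM in Urod shRNA cells, against 216, 249.9 and 255 TPM in scrambled cells, and rose 1.67-fold with no overlap (log2 change 0.74, SE 0.06; limma, adjusted p = 2.72e-05). Slc16a1, which encodes the widespread transporter MCT1, had 272, 262 and 263 TPM in Urod shRNA cells and 213, 204 and 198 TPM in scrambled cells, and rose less, 1.30-fold (log2 change 0.37, SE 0.03; limma, adjusted p = 3.61e-05). Slc16a3 made up 60.1% ± 1.45 of the TPM of both transporters in Urod shRNA cells and 53.9% ± 3.10 in scrambled cells (SD, n = 3 each).

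**Figure D2:**
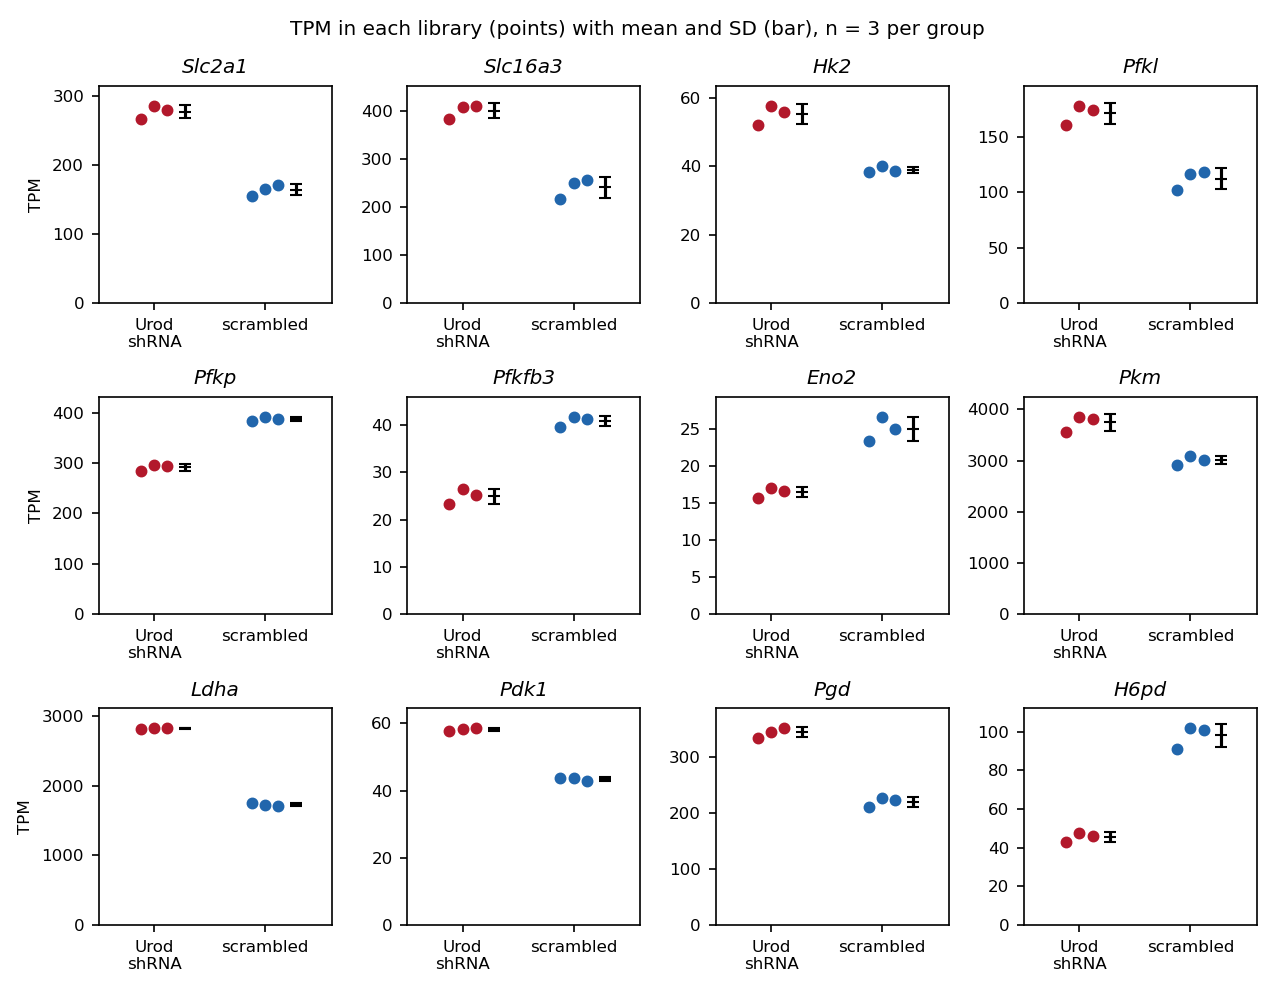
TPM of 12 members in each library (points), with the mean and SD of each group beside them (n = 3), from 0 on each vertical axis; Urod shRNA libraries are at left in each panel. In none of the 12 panels do the groups overlap, and Pfkp, Pfkfb3, Eno2 and H6pd are the 4 in which the Urod shRNA points are lower.

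The promoters of 6 members are shown, 4 that were higher along the route from glucose entry to lactate export and 2 that were lower, because several genes on that route are textbook targets of hypoxia-inducible factors, whose sites share the core letters ACGTG or GCGTG. Each is the 250 bases before a RefSeq start on GRCm38, printed 5′ to 3′ on the strand of the gene. Capitals mark those cores on either strand, which read CACGT or CACGC when they lie on the other strand. Where RefSeq gives several starts, the one with the most cores is shown.
Slc2a1, chr4:119108495-119108744, plus strand: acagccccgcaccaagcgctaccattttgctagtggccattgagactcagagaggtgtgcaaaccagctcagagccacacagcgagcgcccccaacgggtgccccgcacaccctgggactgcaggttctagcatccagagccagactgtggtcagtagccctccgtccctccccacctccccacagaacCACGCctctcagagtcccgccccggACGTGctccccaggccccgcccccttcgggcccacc
Hk2, chr6:82774455-82774704, minus strand: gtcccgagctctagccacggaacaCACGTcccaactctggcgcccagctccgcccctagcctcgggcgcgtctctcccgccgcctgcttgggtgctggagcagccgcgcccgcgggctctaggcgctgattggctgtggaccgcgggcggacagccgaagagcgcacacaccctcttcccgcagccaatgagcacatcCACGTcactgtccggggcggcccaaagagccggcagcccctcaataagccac
Ldha, chr7:46845554-46845803, plus strand: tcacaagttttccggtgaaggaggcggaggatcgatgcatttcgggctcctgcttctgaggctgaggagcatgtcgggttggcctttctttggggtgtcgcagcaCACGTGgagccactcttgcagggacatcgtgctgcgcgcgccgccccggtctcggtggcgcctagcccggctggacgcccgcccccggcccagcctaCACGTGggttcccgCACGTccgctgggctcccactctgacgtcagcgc
Slc16a3, chr11:120948817-120949066, plus strand: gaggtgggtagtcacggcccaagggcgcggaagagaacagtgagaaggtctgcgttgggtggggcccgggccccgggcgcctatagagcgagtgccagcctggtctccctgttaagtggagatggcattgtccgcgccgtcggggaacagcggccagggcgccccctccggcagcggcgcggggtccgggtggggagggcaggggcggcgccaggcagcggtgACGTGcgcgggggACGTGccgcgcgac
Pfkfb3, chr2:11502091-11502340, minus strand: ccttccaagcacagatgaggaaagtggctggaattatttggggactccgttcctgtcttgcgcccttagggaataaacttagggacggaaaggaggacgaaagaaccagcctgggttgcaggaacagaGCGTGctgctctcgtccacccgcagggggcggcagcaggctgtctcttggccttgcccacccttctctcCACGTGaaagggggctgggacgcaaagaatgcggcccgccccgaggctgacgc
H6pd, chr4:150003237-150003486, minus strand: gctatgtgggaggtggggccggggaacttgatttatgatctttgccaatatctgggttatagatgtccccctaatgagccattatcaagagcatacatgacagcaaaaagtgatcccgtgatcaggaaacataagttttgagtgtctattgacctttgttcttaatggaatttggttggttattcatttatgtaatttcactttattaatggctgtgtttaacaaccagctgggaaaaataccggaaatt
All but the H6pd window hold at least 1 core, including Pfkfb3, which was lower in Urod shRNA cells. The windows shown for Ldha, Slc16a3, Pfkfb3 and H6pd lie inside the GENCODE intervals of their genes. The bases before the outer 5′ end of the H6pd interval were not searched, so cores there are unknown. The palindrome CACGTG, the E-box bound by MYC and related factors, contains ACGTG on both strands, and it occurs 2 times in the Ldha window and 1 time in the Pfkfb3 window. RefSeq promoters were matched for 38 of the 39 members, with 58 starts in all, and none was matched for Slc2a3. Among called members not shown, Tpi1, Tigar and Rpe, all higher, and Eno2, which was lower, had no core in any window. Pfkm, Pfkp, Pfkfb4, Pdk3, Rpia and Taldo1, all lower, had at least 1, as had the remaining higher members with a window. Whether cores go with direction was not tested. ACGTG occurred in 18 of the 58 windows (31%), against 16.6% of 32851 windows of all genes and 21.8% of 11354 windows of the genes tested. GCGTG occurred in 31 of 58 (53.4%), against 28.2% and 44.9%, and CACGTG in 6 of 58 (10.3%), against 6.02% and 8.34%. The motif TGATGNAA, bound by ATF4 complexes, occurred in 0 of 58 windows, against 3.45% of all and 1.99% of tested genes' windows, and TGACNNNGC, the core bound by NRF2, in 4 of 58 (6.9%), against 10.2% and 12%. Both strands were searched, windows of 1 gene can overlap, and a match is a run of letters, not a shown binding site.

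The first steps inside the cell did not move together. Hexokinases trap glucose by phosphorylation. Hk2, the isozyme induced in many tumours, averaged 55.4 ± 2.82 TPM in Urod shRNA cells and 39.1 ± 0.879 TPM in scrambled cells (SD, n = 3 each) and rose 1.42-fold with no overlap (log2 change 0.49, SE 0.04; limma, adjusted p = 3.17e-05). Hk1, the more widespread isozyme and here the more abundant, had 87.2, 100.1 and 96.0 TPM in Urod shRNA cells and 86.9, 100.2 and 101 TPM in scrambled cells. The groups overlapped, and the log2 change was -0.02 with a 95% interval from -0.19 to 0.14 (limma, adjusted p = 0.771). Hk2 therefore took 37.0% ± 0.450 of hexokinase TPM in Urod shRNA cells and 28.9% ± 1.56 in scrambled cells. Gpi1, the isomerase that follows, had 347, 373 and 363 TPM in Urod shRNA cells and 362, 392 and 381 TPM in scrambled cells, also overlapping. Its log2 change of -0.07 (95% interval -0.16 to 0.03) did not pass (limma, adjusted p = 0.176), though it did without scrambled replicate 1 (-0.10, limma, adjusted p = 0.0443).

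At phosphofructokinase 1, the committed step of glycolysis, the isozymes went in opposite directions. Pfkl, the liver-type subunit, had 161, 178 and 175 TPM in Urod shRNA cells, against 102, 117 and 119 TPM in scrambled cells, and rose 1.52-fold (log2 change 0.61, SE 0.07; limma, adjusted p = 8.98e-05). Pfkp, the platelet-type subunit and the most abundant of the 3, had 283, 296 and 295 TPM in Urod shRNA cells, against 383, 392 and 387 TPM in scrambled cells. Pfkp fell to 75.2% of the scrambled level (log2 change -0.41, SE 0.03; limma, adjusted p = 8.12e-06). Pfkm, the muscle-type subunit, averaged 74.8 ± 2.72 TPM in Urod shRNA cells and 95.9 ± 2.19 TPM in scrambled cells (SD, n = 3 each) and fell by 0.36 on the log2 scale (limma, adjusted p = 6.6e-05). None of the 3 overlapped between groups. Pfkl made up 31.9% ± 0.620 of the family in Urod shRNA cells and 18.9% ± 1.15 in scrambled cells, Pfkp 54.2% ± 0.625 and 65.0% ± 0.980 (SD, n = 3 each). The summed TPM of the family was 538 ± 18.6 in Urod shRNA cells and 596 ± 14.6 in scrambled cells.

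The genes that set the level of fructose 2,6-bisphosphate, the strongest activator of phosphofructokinase 1, also went both ways. Pfkfb3, the isozyme with by far the highest kinase over phosphatase activity, had 23.3, 26.5 and 25.1 TPM in Urod shRNA cells, against 39.7, 41.8 and 41.3 TPM in scrambled cells. It fell to 61.0% of the scrambled level (log2 change -0.69, SE 0.05; limma, adjusted p = 1.19e-05), with no overlap. Tigar, a phosphatase of the same sugar phosphate that is induced by p53 in human cells and directs glucose 6-phosphate towards the pentose pathway, had 46.4, 48.8 and 46.5 TPM in Urod shRNA cells, against 34.9, 34.9 and 34.2 TPM in scrambled cells. It rose 1.36-fold (log2 change 0.44, SE 0.04; limma, adjusted p = 1.72e-05). The other family members were less abundant and differed less between groups. Pfkfb4 stood at 8.62 ± 0.333 TPM in Urod shRNA and 9.93 ± 0.168 TPM in scrambled cells (SD, n = 3 each; log2 change -0.18, limma, adjusted p = 0.0108), a call lost without Urod shRNA replicate 3 (-0.16, limma, adjusted p = 0.0508). Pfkfb1 stood at 17.0 ± 0.848 TPM in Urod shRNA and 15.1 ± 0.921 TPM in scrambled cells (SD, n = 3 each; log2 change 0.16, limma, adjusted p = 0.0415). That call was lost without Urod shRNA replicate 1 (0.13) or 3 (0.15), without scrambled replicate 2 (0.16) or 3 (0.12), and with median-ratio scaling (0.16), quantile normalization (0.19) or no filter on low values (0.16), with adjusted p between 0.0511 and 0.138. Pfkfb2 stood at 2.62 ± 0.0659 TPM in Urod shRNA and 2.74 ± 0.125 TPM in scrambled cells (SD, n = 3 each; limma, adjusted p = 0.513). Pfkfb3 made up 46.9% ± 2.09 of the TPM of the 4 Pfkfb genes in Urod shRNA cells and 59.6% ± 1.19 in scrambled cells.

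**Figure D3:**
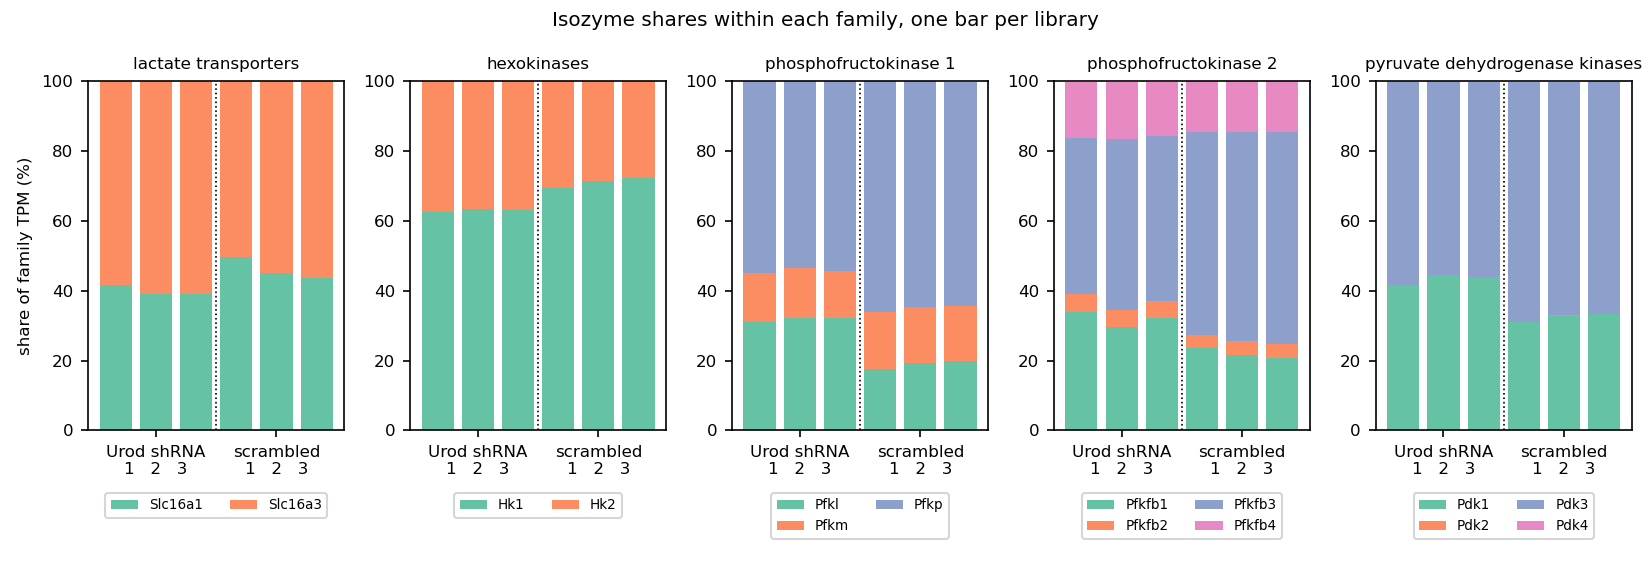
Share of each isozyme in the summed TPM of its family, in percent, with 1 stacked bar per library and the Urod shRNA libraries at left of each dotted line. Pfkl, Hk2, Pdk1 and Slc16a3 take larger shares in all 3 Urod shRNA libraries, and Pfkp, Pfkfb3 and Pdk3 smaller ones.

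These shares do not depend on how a library is scaled. Of 19 shares tested, 17 did not overlap between groups, while the TPM of 77.3% of all genes tested did not overlap either. Shares within a family add up to the whole, so they are not separate results. Each of the 17 had p = 0.1 in a two-sided exact permutation test, the smallest that 3 against 3 libraries allow (adjusted p = 0.112 over the 19 shares). This permutation test therefore cannot take any of them under 0.05. The 2 shares that overlapped were those of Aldoc and Pdk4, both close to 0. The shares of Pdk2 and Ldhb, which did not overlap, were close to 0 as well. Both genes were under 1 TPM in every library and were not tested in the limma fit.

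From aldolase to pyruvate kinase the transcripts differed widely in level, and 6 of 9 tested members rose while 1 fell. That is 66.7% and 11.1%, against 38.5% and 36.2% of all genes tested. Without the 5 members of this stretch that share over 20% of their sequence words with other genes, as set out at Gapdh, 4 remained, of which Tpi1 rose, Eno2 fell, and Aldoa and Eno3 did not pass. Pkm, the pyruvate kinase gene and the most abundant member, had 3563, 3858 and 3816 TPM in Urod shRNA cells, against 2923, 3091 and 3021 TPM in scrambled cells. It rose 1.24-fold (log2 change 0.31, SE 0.04; limma, adjusted p = 0.000291). The table has 1 row per gene, so the splice forms of Pkm cannot be told apart. Aldoa, the main aldolase of most tissues, had 1583, 1681 and 1649 TPM in Urod shRNA cells and 1559, 1684 and 1667 TPM in scrambled cells. Its groups overlapped, and the log2 change was 0.00 with a 95% interval from -0.09 to 0.10 (limma, adjusted p = 0.98).

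Tpi1, the triose isomerase, averaged 1145 ± 18.7 TPM in Urod shRNA cells and 903 ± 32.2 TPM in scrambled cells (SD, n = 3 each) and rose 1.27-fold (limma, adjusted p = 5.83e-05). Eno1, the ubiquitous enolase, averaged 1301 ± 48.8 TPM in Urod shRNA cells and 1076 ± 68.2 TPM in scrambled cells (SD, n = 3 each) and rose 1.21-fold (limma, adjusted p = 0.00184). Pgam1, the phosphoglycerate mutase, rose 1.41-fold and Pgk1, the phosphoglycerate kinase, 1.18-fold. Eno2, the neuronal enolase, had 15.7, 17.1 and 16.7 TPM in Urod shRNA cells, against 23.3, 26.6 and 25.04 TPM in scrambled cells, and fell to 65.9% of the scrambled level (log2 change -0.57, SE 0.06; limma, adjusted p = 6.4e-05). Eno3, the muscle enolase, stood at 48.8 ± 1.6 TPM in Urod shRNA and 47.1 ± 1.78 TPM in scrambled cells (SD, n = 3 each; limma, adjusted p = 0.29). Aldoc, the brain aldolase, was under 1 TPM in every library.

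Gapdh, a much used reference gene, had 11.6, 12.3 and 10.8 TPM in Urod shRNA cells, against 7.62, 6.68 and 7.99 TPM in scrambled cells, and rose 1.55-fold (log2 change 0.58, SE 0.08; limma, adjusted p = 0.000265). Its level was far below that of Tpi1, an enzyme of the same stretch of the pathway. Of the 51-base words in its annotated coding transcripts, the length of the reads, 58.1% also occur in transcripts of 216 other annotated genes. Alignments of low mapping quality had been discarded, and the part of shared sequence in its low level was not tested. The share of such words was 67.9% for Pgk1, 49.3% for Eno1, 41.4% for Pgam1, 23.3% for Pkm and 22.8% for Pfkfb2, and at most 18.1% for the other tested members, so the levels of these 6 genes are uncertain. Without them 29 tested members remained, 15 of them higher and 9 lower in Urod shRNA cells, an alternative chosen after the data were seen. Of the called members that remained 62.5% were higher, against 69.0% of all called members and 51.5% of all called genes. The median log2 change was 0.16, against 0.23 over all tested members. The genes left out were all higher except Pfkfb2, which did not pass, so part of the tilt towards higher rests on uncertain levels.

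**Figure D4:**
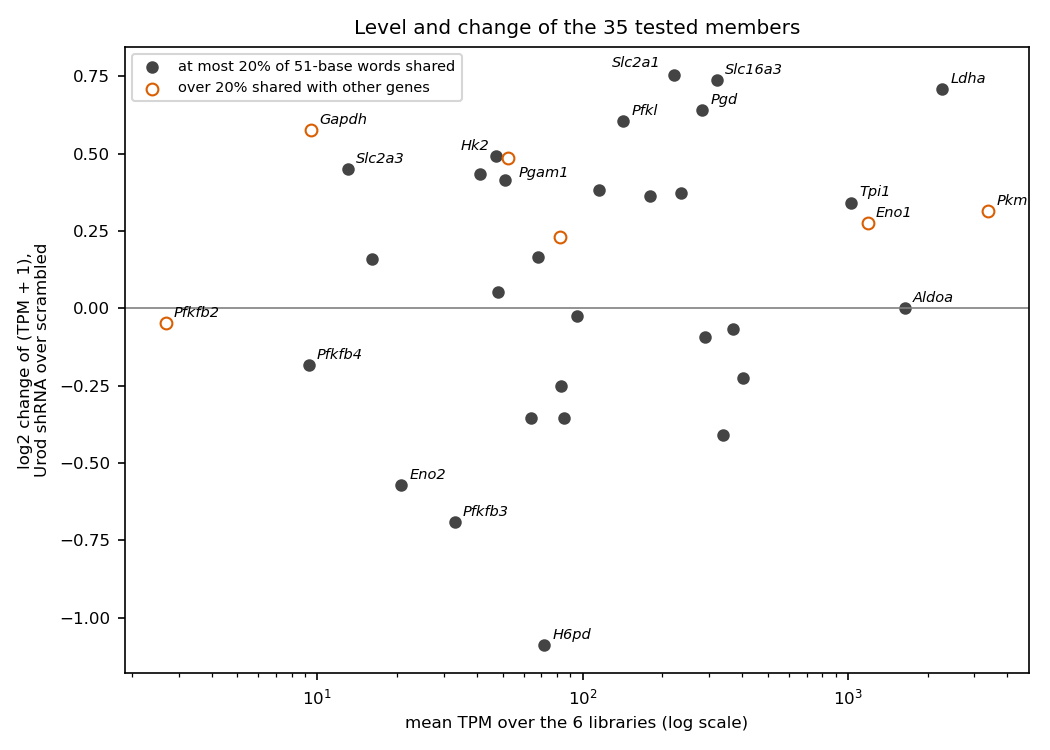
Mean TPM over the 6 libraries (log axis) and log2 change of TPM + 1, Urod shRNA over scrambled, for the 35 tested members (n = 3 per group); open orange points are the 6 genes of which over 20% of 51-base words occur in other genes. The 9 members that fell all lie at lower levels than the 5 most abundant members, of which 4 rose and Aldoa lies at 0.

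The 5 most abundant members, Pkm, Ldha, Aldoa, Eno1 and Tpi1 in that order in both groups, held 72.7% to 72.9% of the members' summed TPM in Urod shRNA libraries and 69.7% to 69.9% in scrambled libraries. Pkm, Eno1 and the scarce Gapdh are among the genes of uncertain level set out at Gapdh, so the order and this summed share are uncertain too. In Urod shRNA cells the 3 Ldha values (2816 to 2829 TPM) lay far above the 3 Aldoa values (1583 to 1681 TPM), whereas in scrambled cells they lay next to them (1710.1 to 1743 against 1559 to 1684 TPM).

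Pyruvate dehydrogenase kinases switch off the enzyme that sends pyruvate into the mitochondrial cycle. Pdk1, an isozyme known as a hypoxia target, had 57.7, 58.4 and 58.7 TPM in Urod shRNA cells, against 43.6, 43.9 and 42.8 TPM in scrambled cells. It rose 1.34-fold (log2 change 0.41, SE 0.03; limma, adjusted p = 9.58e-06). Pdk3 had 80.2, 72.5 and 74.9 TPM in Urod shRNA cells, against 96.8, 89.3 and 85.5 TPM in scrambled cells, and fell to 83.8% of the scrambled level (log2 change -0.25, SE 0.06; limma, adjusted p = 0.0043). Neither pair of groups overlapped. The summed TPM of the 4 kinases was nearly equal, at 134.2 ± 3.55 in Urod shRNA cells and 134.1 ± 6.14 in scrambled cells (SD, n = 3 each), while the share of Pdk1 was 43.4% ± 1.45 and 32.4% ± 1.23. Pdk2 and Pdk4 were under 0.1 TPM in every library.

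In the oxidative arm of the pentose phosphate pathway, the cytosolic enzymes rose and their counterpart in the endoplasmic reticulum fell. G6pdx, the glucose 6-phosphate dehydrogenase that opens the pathway, had 197, 211 and 199.8 TPM in Urod shRNA cells, against 154, 162 and 155 TPM in scrambled cells, and rose 1.29-fold (log2 change 0.36, SE 0.04; limma, adjusted p = 6.02e-05). Pgls, the lactonase of the second step, averaged 130.4 ± 3.17 TPM in Urod shRNA cells and 99.97 ± 6.46 TPM in scrambled cells (SD, n = 3 each) and rose 1.30-fold. Pgd, the 6-phosphogluconate dehydrogenase that makes the second NADPH, had 335, 345 and 353 TPM in Urod shRNA cells, against 211, 228 and 223 TPM in scrambled cells. It rose 1.56-fold (log2 change 0.64, SE 0.04; limma, adjusted p = 3.68e-06), and none of the 3 cytosolic enzymes overlapped between groups.

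H6pd carries out the first steps in the lumen of the endoplasmic reticulum, where it supplies NADPH to the steroid reductase there. It had 42.8, 47.6 and 46.2 TPM in Urod shRNA cells, against 90.9, 102 and 101 TPM in scrambled cells. The groups were far apart, and H6pd fell to 46.5% of the scrambled level (log2 change -1.09, SE 0.06; limma, adjusted p = 2.15e-06), the largest change of any tested member in size. Set against G6pdx in a ratio chosen after the values were seen, H6pd made up 18.4% ± 0.450 of the summed TPM of these dehydrogenases in Urod shRNA cells and 38.4% ± 1.21 in scrambled cells.

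The non-oxidative arm did not follow the cytosolic oxidative enzymes. Taldo1, the transaldolase, had 373, 365 and 374 TPM in Urod shRNA cells, against 421, 438 and 440.2 TPM in scrambled cells, and fell to 85.6% of the scrambled level (log2 change -0.22, SE 0.03; limma, adjusted p = 0.000242). Tkt, the transketolase, had 266, 287 and 289 TPM in Urod shRNA cells and 278, 311 and 310.0 TPM in scrambled cells. These overlapped, and the log2 change of -0.09 (95% interval -0.22 to 0.03) did not pass (limma, adjusted p = 0.153), though it did without scrambled replicate 1 (-0.14, limma, adjusted p = 0.0135). Rpia, the isomerase that yields ribose 5-phosphate, fell to 77.9% of the scrambled level, with 56.0 ± 1.25 TPM in Urod shRNA and 71.9 ± 2.13 TPM in scrambled cells (SD, n = 3 each; limma, adjusted p = 5.26e-05). Rpe, the epimerase of the parallel branch, rose 1.12-fold, with 71.8 ± 2.12 TPM in Urod shRNA and 63.9 ± 2.23 TPM in scrambled cells (SD, n = 3 each; limma, adjusted p = 0.00514). The summed TPM of the arm was 779 ± 9.26 in Urod shRNA and 869 ± 25.2 in scrambled cells, whereas that of the oxidative arm was 723 ± 14.6 and 576 ± 20.2.

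Members that are neighbours in the genome shared a direction in some cases and not in others. The 39 genes lie on 15 chromosomes, 9 of them on chromosome 6 (GENCODE M21, GRCm38). Eno2 (chromosome 6, 124760053 to 124769673) and Tpi1 (chromosome 6, 124810586 to 124814296) are 40.9 kb apart, and the first fell while the second rose. Tpi1 and Gapdh, 347 kb apart on the same chromosome, both rose. H6pd (chromosome 4, 149979475 to 150009023) fell, while Pgd (chromosome 4, 149149991 to 149166771), 813 kb away, and Eno1 (chromosome 4, 150236721 to 150248879), 228 kb away, rose. The intervals span the whole gene.

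Other genes of sugar metabolism, listed by function, were called about as often as genes in general. Of 81, 60 were tested. Higher in Urod shRNA cells were 28 (46.7%) and lower 21 (35%), against 38.5% and 36.2% of all genes tested. Called were 81.7%, against 74.7% of all genes tested, and the median log2 change was 0.08. Of 14 tested genes listed around glycolysis, including transporters and the phosphatases Fbp2 and Pgam5, 8 rose (57.1%) and 5 fell (35.7%). The largest changes among these were those of the insulin-regulated glucose transporter Slc2a4, at 2.25 ± 0.183 TPM in Urod shRNA and 6.74 ± 1.06 TPM in scrambled cells, of the intracellular transporter Slc2a8, at 22.3 ± 0.702 and 43.9 ± 3.38 TPM, and of the mitochondrial glycerophosphate dehydrogenase Gpd2, at 52.1 ± 2.86 and 81.1 ± 1.52 TPM (SD, n = 3 each), all of them falls.

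Of 11 other tested genes that handle pentose phosphates or glucose 6-phosphate, 7 rose (63.6%) and 4 fell (36.4%), against 38.5% and 36.2% of all genes tested. The 4 were Prps2, Shpk, G6pc3 and Slc37a4. Prps2, a phosphoribosyl pyrophosphate synthetase that feeds ribose 5-phosphate into nucleotide synthesis, had 136, 133 and 133 TPM in Urod shRNA cells, against 415, 413 and 401 TPM in scrambled cells. It fell to 32.8% of the scrambled level (log2 change -1.60, SE 0.03; limma, adjusted p = 2.63e-08), the largest change of any tested gene of these 4 lists. Its paralog Prps1 rose 1.20-fold, to 149 ± 2.25 TPM in Urod shRNA cells, against 124 ± 3.23 TPM in scrambled cells (SD, n = 3 each). The related Prps1l3 (log2 change 0.94) and the synthetase-associated Prpsap2 (0.72) rose too. Whether Prps1, Prps2 and Prps1l3 share reads with one another was not examined.

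Of 23 tested genes of neighbouring sugar pathways 7 rose (30.4%) and 10 fell (43.5%), against 38.5% and 36.2% of all genes tested. In glycogen synthesis the synthase Gys1 rose 2.17-fold, to 75.4 ± 4.05 TPM in Urod shRNA cells, against 34.8 ± 2.74 TPM in scrambled cells, while the primer protein gene Gyg fell to 54.5% of the scrambled level, with 119.6 ± 5.67 and 219.7 ± 11.8 TPM. Khk, the fructokinase, fell to 43.6% of the scrambled level, with 26.1 ± 0.791 TPM in Urod shRNA and 59.8 ± 4.62 TPM in scrambled cells (SD, n = 3 each). Of 12 genes at the entry of pyruvate into mitochondrial metabolism 6 rose (50%) and 2 fell (16.7%). Pck2, the mitochondrial phosphoenolpyruvate carboxykinase, rose 2.01-fold, with 84.3 ± 1.64 TPM in Urod shRNA and 42.0 ± 2.44 TPM in scrambled cells, and Dld, the lipoamide dehydrogenase of the pyruvate dehydrogenase complex, 1.64-fold, with 578 ± 26.1 and 353 ± 14.8 TPM (SD, n = 3 each). Pdp1, the phosphatase that reverses the pyruvate dehydrogenase kinases, fell to 65.0% of the scrambled level, with 40.8 ± 0.856 TPM in Urod shRNA and 62.8 ± 1.45 TPM in scrambled cells (SD, n = 3 each). Pdha1, the subunit those kinases phosphorylate, stood at 375 ± 3.9 and 394 ± 10.8 TPM and did not pass (log2 change -0.07; limma, adjusted p = 0.0526).

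**Figure D5:**
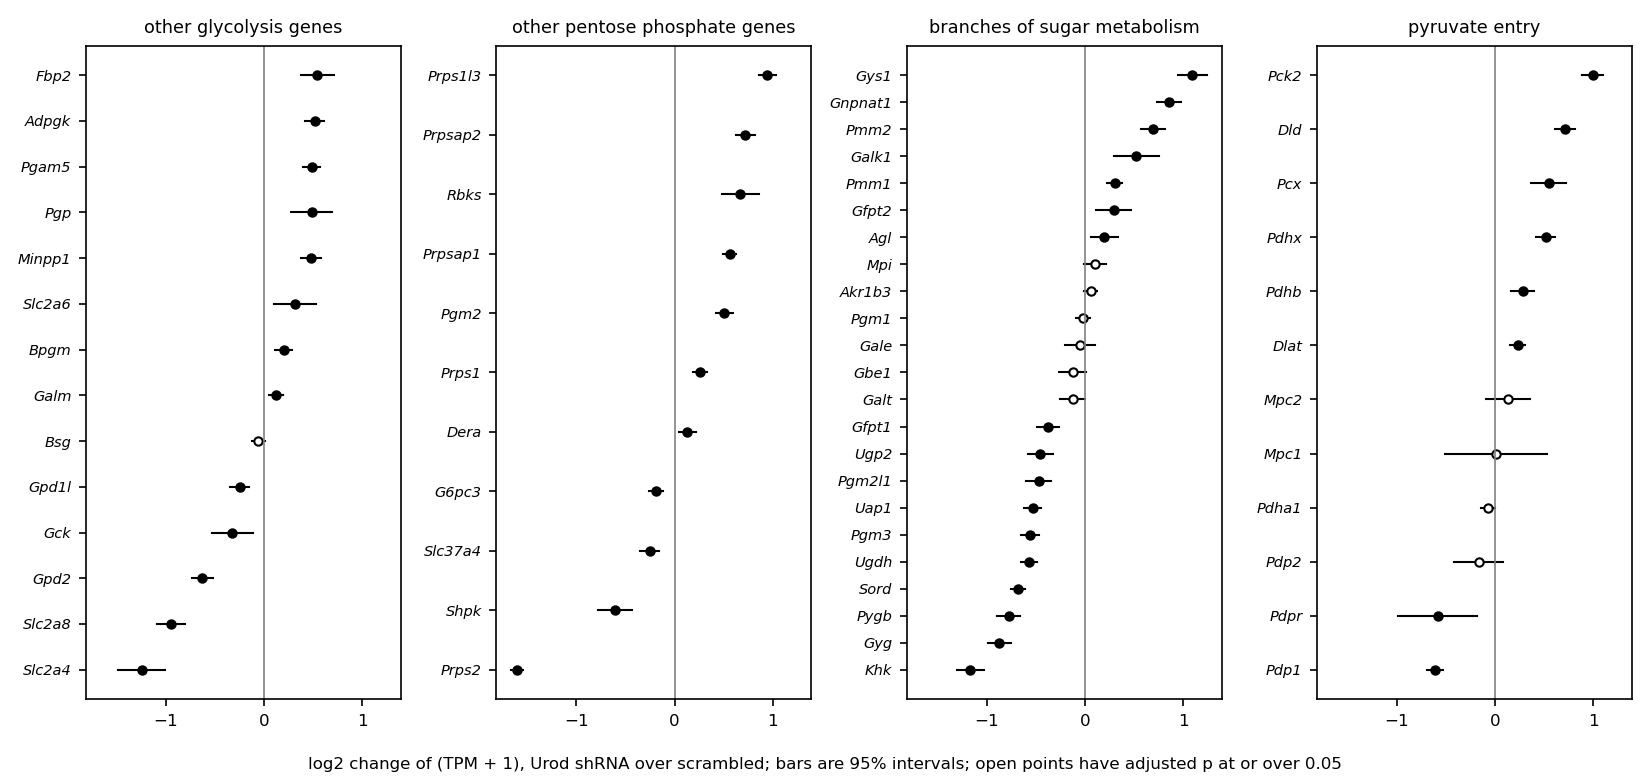
Log2 change of TPM + 1, Urod shRNA over scrambled, for the 60 tested genes of 4 further lists, with 95% intervals (limma, n = 3 per group); open points did not pass the test. Each list has genes on both sides of 0, with Prps2 at -1.60 and Gys1 at 1.09 as the outermost.

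In the authors' deposited table of the same comparison, 28 of the 39 members had an FDR under 0.05, and these 28 were all called by limma with the same sign. The only limma call of a member that the authors' deposited table does not share is that of Pfkfb1, with an FDR of 0.0606 there. Over all 11980 genes tested, 9022 had an FDR under 0.05 in that table. Of these, 8718 were called by limma too, all 8718 with the same sign, so this agreement does not set the members apart. As both tests use these 6 libraries, neither is an independent check of the other.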

How the data were processed

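RNA was measured in 6 libraries, 3 per group, grouped by their titles. Per the labels' protocols, polyadenylated RNA was sequenced from a stranded kit as 51-base single-end reads. TopHat aligned these to mm10, mapping quality had to reach 10, and Cufflinks and Cuffdiff (2.1.1) followed. The authors call the deposited table normalized counts, yet its columns add up to 1000000 each. On the log2 scale the gap between these values and the CPM of the authors' comparison table falls with transcript length (r = -0.907 over 11435 genes, a description only), so the deposited values were read as TPM. The authors' comparison table holds log2 fold changes, a likelihood ratio score and p-values, per the file headers; the sources used here name neither its test nor whether counting used strand. The 27 rows with a date for a name were left out.

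The 11980 genes whose mean reached 1 TPM were fitted as log2(TPM + 1), which understates changes of low genes, with limma 3.58.1 in R 4.3.3 (variance trend, two-sided, Benjamini-Hochberg over all genes, threshold 0.05). Shares were compared by exact permutation (scipy 1.17.1). The procedure was tested on simulated data. The members and lists were chosen with earlier results of these data known. Values in every library are given for called members with a log2 change of at least 0.5 in size and for the 2 most abundant of each role; of other genes, the 3 largest called changes per list, with Prps1 and Pdha1 added after their values were seen. Promoters are from RefSeq (GRCm38.p6), shared words from GENCODE M21 transcripts. TPM keep no counts, so no counting interval can be given.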

Additional observations from a re-analysis of the deposited data

How the results depend on the processing

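Under 11 other settings, of which 2 were chosen after seeing the data, 24 to 30 members were called, 15 to 20 higher and 8 to 10 lower in Urod shRNA cells; the lowest count came from 29 tested members. With any 1 library left out, 27 to 31 members were called, 19 to 20 higher and 8 to 11 lower, and 46 to 50 other pathway genes. That is 77.1% to 88.6% of the tested members, against 69.0% to 75.2% of all genes tested. Of 35 tested members, 28 kept direction and side of the threshold in every setting in which they were fitted. Signs turned for 3 members that did not pass: Pfkfb2 with quantile normalization (0.088), Hk1 without 1 library (-0.095 to 0.031) and Aldoa likewise (-0.033 to 0.025); the cause was not tested. With quantile normalization Aldoa (0.14) and Gpi1 (-0.14) passed. A pseudocount of 10 TPM shrinks changes of low members by its construction, to 0.31 for Gapdh and 0.27 for Slc2a3. By the labels, replicates across the groups share only a number. Deviations of same-numbered libraries correlated at 0.418, 0.214 and 0.0951 across genes, and those of differently numbered libraries at -0.335 to 0.203. A replicate effect common to both groups was not tested, and the main fit does not use the number. With a replicate block 31 members were called, 20 higher and 11 lower, with Gpi1 and Tkt added and no member's call lost. That is 88.6% of the tested members, while calls over all genes tested rose as well, from 74.7% to 82.5%. Genes called in all numbered 6897 to 10286 over 9 of the 11 settings, 52.5% to 77.2% of those tested. The same 9 settings called 74.4% to 85.7% of the members fitted. The depth in reads is unknown, which limits statements on members under 1 TPM.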
